A study of Homo sapiens with 9 samples.

Results

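The TGF-beta, BMP and SMAD pathway genes described here are 43 genes chosen by name for their place in the signalling of the transforming growth factor beta family. They comprise ligands, the proteins that keep the ligands latent or bind them outside the cell, receptors, the SMAD proteins that carry the signal to the nucleus, and the ID genes. By the symbol of the array annotation, 40 of the 43 had a probe set among the 21448 probe sets of the arrays, each with exactly 1. TGFB2, BMPR1A and FSTL1 had no probe set of that symbol and were not analysed here.

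The cells were ASC52telo, a human adipose-derived mesenchymal stem cell (ASC) line immortalized with telomerase, so all values come from 1 line. They were kept for 10 days on rat-tail collagen I in a keratinocyte differentiation medium (DM), and RNA of 9 samples, 3 in each of 3 groups, was hybridized to Clariom S Human arrays, which read the pooled RNA of all cells in a sample. The DM group received the medium alone, the DMSO group the medium with 0.1% of the solvent, and the CID group the medium with 40 μM CID-1067700, a small molecule that blocks nucleotide binding by Rab7, the GTPase of late endosomes. All 3 groups therefore shared every additive of the medium, namely recombinant BMP-4, EGF, ascorbic acid 2-phosphate, hydrocortisone and all-trans retinoic acid. The share of DMSO in the CID wells is not given in the sources used here, so the DMSO group is a vehicle control only as the labels name it. The submitters called the 3 arrays of a group biological replicates without saying whether they were separate cultures, so a p-value here reflects the scatter among these arrays, which may be technical.

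TGF-beta is secreted bound to latent TGF-beta binding proteins in the matrix and has to be released before it can bind its receptors, whereas BMPs and activins are held in check by secreted antagonists such as noggin, chordin-like proteins and follistatin. Ligands assemble type I and type II receptor kinases, which phosphorylate SMAD2 and SMAD3 after TGF-beta or activin and SMAD1 and SMAD5 after BMP, and these enter the nucleus with SMAD4. SMAD6, SMAD7 and the ID genes are transcribed in response to the signal, and the first pair dampen it.

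The arrays were closely alike, with array medians between 7.06 and 7.14 on the log2 scale and correlations across probe sets of 0.994 to 0.995 within a group. The labelled cell type was checked on marker genes. All 9 mesenchymal stromal markers (NT5E, THY1, ENG, PDGFRB, PDGFRA, VIM, COL1A2, LUM and DCN) had mean log2 values above 5.40, the limit of the dimmest 33.3% of all probe sets, whereas 8 of 11 measured keratinocyte and epithelial markers, KRT5, KRT14 and CDH1 among them, lay below that limit. Of the endothelial markers 3 of 6 lay below the limit, and of the measured leukocyte markers 1 of 7. A value above the limit therefore does not by itself identify a cell type. Of the pathway genes, BMP2, BMP6, GDF5 and ACVR2B lay in the dimmest range by their mean over all arrays, and the other 36 lay above it.

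Differentially expressed genes (DEGs) were taken at a limma p-value adjusted by Benjamini-Hochberg over all probe sets under 0.05 with a fold change of at least 1.5. Against DM, 1 of the 40 genes, CHRDL1, was a DEG in CID-treated ASCs, and it was lower. Over all probe sets 0.970% were lower and 0.378% higher in that comparison. Against DMSO, 5 of the 40 were DEGs and all 5 were lower, namely CHRDL1, NOG, FST, BMP4 and LTBP1, a share of 12.5% where 1.74% of all probe sets were lower and 0.667% higher. Both comparisons use the same 3 CID arrays and so are not independent of each other. Between DMSO and DM, none of the 40 genes was a DEG with limma, where 0.00466% of all probe sets were lower and 0% higher. With no adjustment for multiple tests, at p under 0.05, INHBA alone was lower in DMSO than in DM and 0 genes were higher, where 4.04% of all probe sets were lower and 2.93% higher. The same unadjusted count was 9 lower and 3 higher against DM, where 6.90% and 5.74% of all probe sets were, and 6 lower and 2 higher against DMSO, where 7.96% and 7.20% were.

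The median log2 fold change of the 40 genes was 0.00 against DM and 0.00 against DMSO, beside medians of 0.01 and 0.02 over all probe sets. Among the roles, 4 of the 5 measured extracellular antagonists had all 3 CID arrays below the 6 others. Counted over the 40 genes, the CID arrays all lay below the 6 DM and DMSO arrays for 7 (LTBP1, BMP4, INHBB, FST, FSTL3, NOG and CHRDL1), where 5.33% of all probe sets did so. They all lay above for 4 (LTBP2, SMAD4, SMAD7 and ID3), where 4.42% of all probe sets did. The plot of log2 fold changes by role shows where these genes stand in the pathway.

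**Figure D1:**
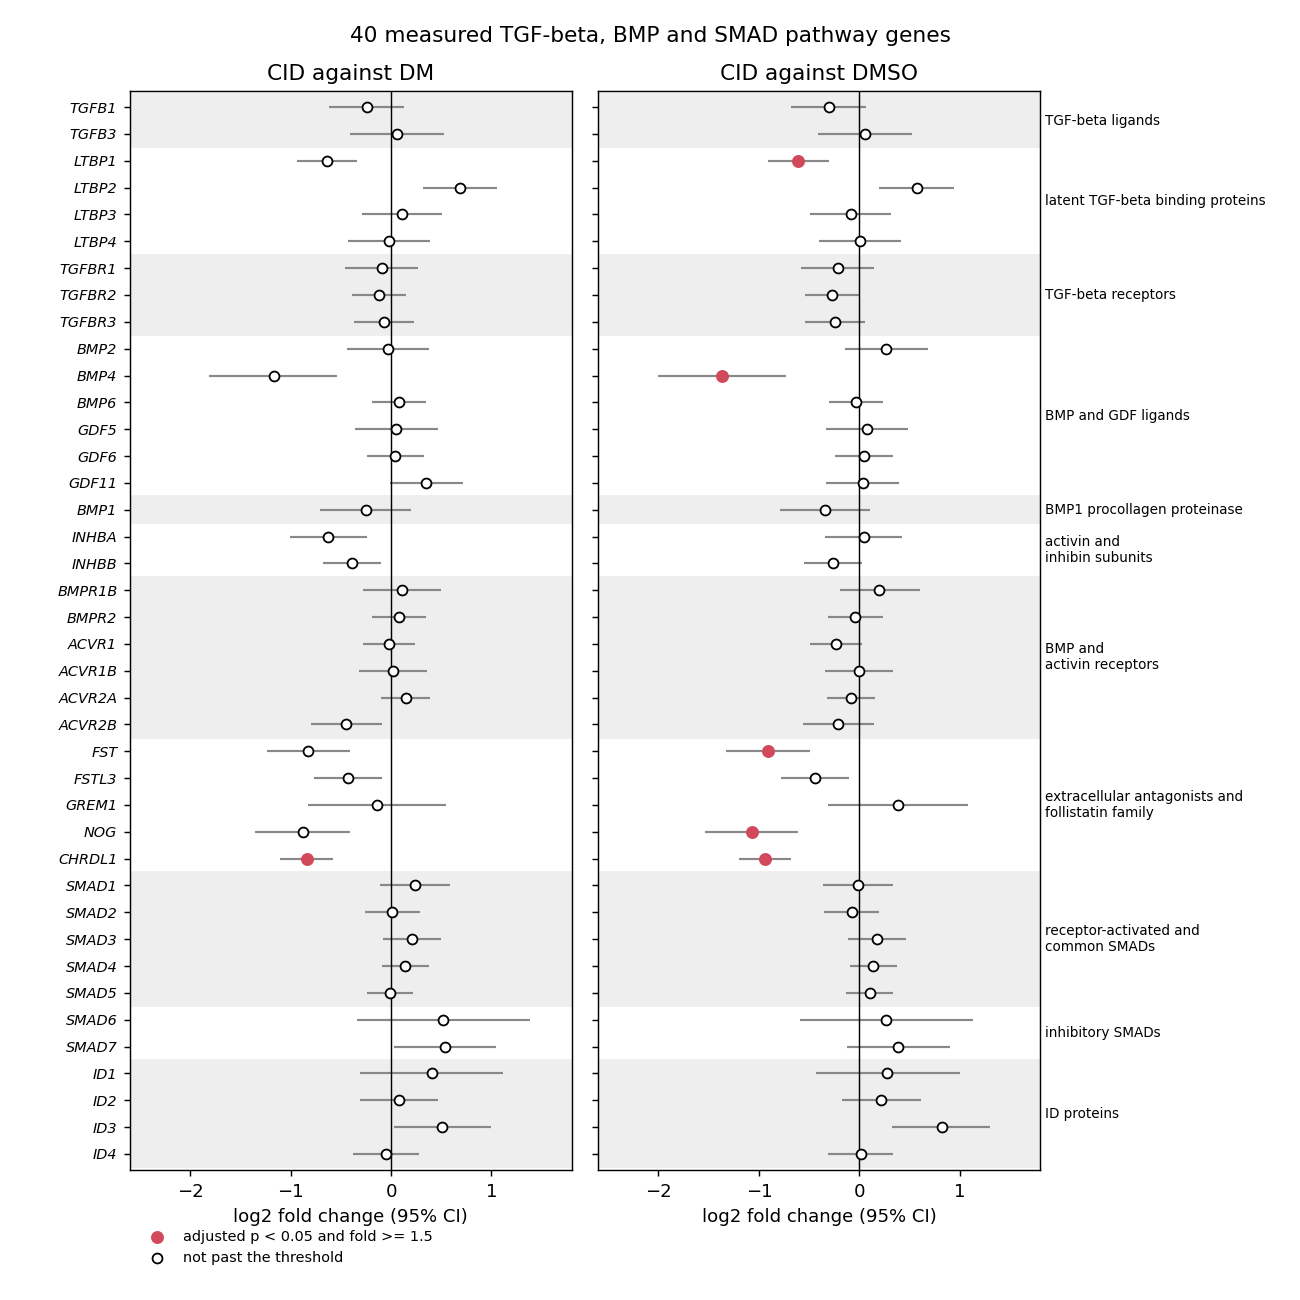
Log2 fold change of CID against DM (left) and against DMSO (right) for the 40 measured genes, in the order of their roles, with 95% confidence intervals from limma over 9 arrays. Filled points passed an adjusted p under 0.05 with a fold of at least 1.5: CHRDL1 on the left, and LTBP1, BMP4, FST, NOG and CHRDL1 on the right, all lower with CID.

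The promoters of 5 genes are shown: CHRDL1, FST and BMP4 as genes lower with CID, and ID1 and ID3 as readout genes of BMP signalling, which were not DEGs. Of the other genes lower against DMSO, LTBP1 is not shown and NOG had no promoter window in the source used. Each promoter shown is the 250 bases before the RefSeq start site on GRCh38.p14, written in the direction of transcription, and for BMP4 it is the first of 3 annotated starts. CHRDL1 lies on the minus strand at chrX:110795818-110796067, FST on the plus strand at chr5:53480379-53480628, BMP4 on the minus strand at chr14:53955051-53955300, ID1 on the plus strand at chr20:31605039-31605288 and ID3 on the minus strand at chr1:23559502-23559751. Capitals mark GTCT or its reverse complement AGAC, the core letters bound by SMAD3 and SMAD4, and GGCGCC, a core of the GC-rich element bound by SMAD1 and SMAD5, both searched on both strands.
CHRDL1: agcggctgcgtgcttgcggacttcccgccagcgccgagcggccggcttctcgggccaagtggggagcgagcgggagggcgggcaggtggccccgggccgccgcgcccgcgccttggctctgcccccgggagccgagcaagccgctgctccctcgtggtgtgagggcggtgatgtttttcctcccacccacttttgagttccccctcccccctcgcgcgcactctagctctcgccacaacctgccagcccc
FST: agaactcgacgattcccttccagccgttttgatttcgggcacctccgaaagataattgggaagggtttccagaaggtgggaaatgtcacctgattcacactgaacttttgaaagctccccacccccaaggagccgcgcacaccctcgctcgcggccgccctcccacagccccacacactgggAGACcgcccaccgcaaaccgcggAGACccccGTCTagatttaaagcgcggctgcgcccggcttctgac
BMP4: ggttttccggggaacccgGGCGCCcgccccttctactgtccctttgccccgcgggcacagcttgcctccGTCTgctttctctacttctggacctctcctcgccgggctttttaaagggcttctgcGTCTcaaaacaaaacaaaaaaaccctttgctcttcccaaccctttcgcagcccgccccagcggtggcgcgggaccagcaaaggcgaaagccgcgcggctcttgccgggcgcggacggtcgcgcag
ID1: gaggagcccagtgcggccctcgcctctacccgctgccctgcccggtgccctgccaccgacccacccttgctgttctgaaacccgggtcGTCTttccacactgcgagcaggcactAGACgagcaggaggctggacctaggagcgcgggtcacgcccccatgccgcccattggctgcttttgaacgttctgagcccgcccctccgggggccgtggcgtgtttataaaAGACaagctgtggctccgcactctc
ID3: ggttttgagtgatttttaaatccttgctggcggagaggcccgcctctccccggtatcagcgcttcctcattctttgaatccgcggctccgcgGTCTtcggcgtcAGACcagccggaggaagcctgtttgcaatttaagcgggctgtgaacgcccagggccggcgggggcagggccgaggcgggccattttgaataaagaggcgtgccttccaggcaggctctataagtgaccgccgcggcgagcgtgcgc

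The window of CHRDL1 held 0 matches to either motif, that of FST 3 to GTCT or AGAC, that of BMP4 2 to GTCT or AGAC and 1 to GGCGCC, that of ID1 3 and that of ID3 2 to GTCT or AGAC. These letters are common in promoters. GTCT or AGAC stood in 77.5% of the 35116 windows of the RefSeq table and in 75.0% of the 68 windows of the 36 pathway genes that matched it. GGCGCC stood in 16.4% of all windows and in 23.5% of those of the pathway genes. The composite GGCGCC, 5 bases, then GTCT, read on both strands, stood in 0.0769% of all windows and in 0% of theirs. A match is a description of the letters and not a measured binding site.

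CHRDL1, chordin-like 1, is a secreted BMP antagonist that binds BMP-4 and keeps it from its receptors. Its probe set read 16.54, 16.38 and 16.47 in DM, 16.48, 16.50 and 16.70 in DMSO, and 15.71, 15.49 and 15.66 in CID (log2 values of arrays 1, 2 and 3, in this order throughout). The DM and DMSO arrays overlapped each other, and every CID array was below all 6 of them. The log2 fold change of CID was -0.84 ± 0.12 (SE) against DM, a 1.79-fold lower value with a limma adjusted p of 0.00702. Against DMSO it was -0.94 ± 0.12, a 1.92-fold lower value with a limma adjusted p of 0.00257. CHRDL1 was the only one of the 40 genes that remained a DEG whichever single array was left out, in 6 of 6 fits against each control.

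NOG encodes noggin, which binds BMP-4 and related BMPs and blocks both receptor contact sites. It read 6.09, 6.04 and 6.22 in DM, 5.83, 6.39 and 6.71 in DMSO, and 4.93, 5.44 and 5.34 in CID. The mean of NOG over all arrays, 5.89, was above 5.40, the limit of the dimmest 33.3% of probe sets. Its CID mean of 5.24 and CID arrays 1 and 3 were below that limit. The fold changes of NOG therefore rest on CID values in or near the dimmest range, and the effect of this on their size was not tested. All 3 CID arrays were below the 6 others, with DMSO array 1 the nearest. NOG was 2.10-fold lower against DMSO (log2 fold change -1.07 ± 0.21 SE, limma adjusted p = 0.0229). Against DM the difference was -0.88 with an adjusted p of 0.0761, which did not pass. The call against DMSO was kept without DMSO array 1 or CID array 2 and was lost without DMSO 2, DMSO 3, CID 1 or CID 3, where the adjusted p reached 0.0885.

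FST encodes follistatin, the secreted protein that binds activins with high affinity and some BMPs more weakly. It read 8.56, 7.96 and 8.53 in DM, 8.53, 8.15 and 8.62 in DMSO, and 7.70, 7.53 and 7.34 in CID. Array 2 was the lowest in both control groups, and the CID arrays were still below it. FST was 1.88-fold lower against DMSO (log2 fold change -0.91 ± 0.19 SE, limma adjusted p = 0.0304) and stood at -0.83 with an adjusted p of 0.0661 against DM. The call against DMSO was kept only without DMSO array 2 (adjusted p = 0.0360) and was lost without any 1 of the other 5 arrays, up to an adjusted p of 0.113.

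FSTL3, a follistatin-like protein that also binds activin, was examined after its values were seen. It read 8.25, 8.63 and 8.59 in DM, 8.78, 8.32 and 8.39 in DMSO, and 8.14, 8.01 and 8.02 in CID. The CID arrays were again the lowest 3, but the log2 fold changes of -0.43 and -0.44 had limma adjusted p-values of 0.251 and 0.191 and did not pass. GREM1, gremlin 1, another BMP antagonist, did not follow the other antagonists. It read 13.24, 12.30 and 13.17 in DM, 12.83, 11.61 and 12.69 in DMSO, and 12.80, 12.69 and 12.80 in CID. Array 2 was far below arrays 1 and 3 in DM and in DMSO but not in CID, and the CID values lay within the range of the DM values. Its log2 fold changes were -0.14 (95% CI -0.83 to 0.55) against DM and 0.39 (95% CI -0.31 to 1.08) against DMSO.

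BMP4 encodes the ligand that the medium also supplied as recombinant protein to every group, and the probe set reads only the transcript made by the cells. It read 7.52, 6.82 and 7.79 in DM, 7.55, 7.64 and 7.52 in DMSO, and 6.67, 6.38 and 5.56 in CID. The 3 CID arrays were the lowest, DM array 2 lay nearest to them, and the CID arrays were themselves widely spread. BMP4 was 2.58-fold lower against DMSO (log2 fold change -1.37 ± 0.29 SE, limma adjusted p = 0.0311), the largest difference among the 40 genes in that comparison. Against DM it was -1.17 with an adjusted p of 0.0800. The call against DMSO was kept only without CID array 1 (adjusted p = 0.0317), and without any 1 of the other 5 arrays the adjusted p rose as far as 0.106.

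The other BMP and GDF ligands did not pass. BMP2, BMP6 and GDF5 were in the dimmest 33.3%, and BMP2, BMP6, GDF5, GDF6 and GDF11 together spanned log2 fold changes of -0.03 to 0.35 against DM and -0.03 to 0.27 against DMSO. BMP1, a metalloproteinase that trims procollagens and is a BMP in name only, read 11.41, 10.61 and 10.66 in DM, 11.03, 11.07 and 10.84 in DMSO, and 10.40, 10.74 and 10.78 in CID. The groups overlapped, and its log2 fold changes were -0.25 (95% CI -0.71 to 0.20) against DM and -0.34 (95% CI -0.79 to 0.11) against DMSO.

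Of the latent TGF-beta binding proteins, LTBP1 was lower in CID-treated ASCs and LTBP2 leaned the other way. LTBP1 is the latent TGF-beta binding protein that tethers the latent TGF-beta complex to the matrix. It read 13.94, 13.53 and 13.81 in DM, 13.76, 13.60 and 13.82 in DMSO, and 13.21, 12.98 and 13.17 in CID. The 3 CID arrays were below the other 6. LTBP1 was 1.52-fold lower against DMSO (log2 fold change -0.61 ± 0.14 SE, limma adjusted p = 0.0431), and against DM it was -0.64 with an adjusted p of 0.0513. The call against DMSO was lost whichever single array was left out, with adjusted p-values of 0.0775 to 0.145. LTBP2, which belongs to the same family but binds fibrillin rather than latent TGF-beta, read 8.43, 8.52 and 9.01 in DM, 8.94, 8.58 and 8.82 in DMSO, and 9.50, 9.28 and 9.26 in CID. All 3 CID arrays were the highest. Its log2 fold changes of 0.69 against DM and 0.57 against DMSO did not pass (limma adjusted p = 0.0784 and 0.120).

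When the 3 CID arrays were set against the mean of DM and DMSO, LTBP2 was called at a log2 fold change of 0.63 (limma adjusted p = 0.0415). In that comparison 6 of the 40 genes were DEGs, LTBP2 higher and LTBP1, BMP4, FST, NOG and CHRDL1 lower, where 1.79% of all probe sets were lower and 0.648% higher. It uses the arrays of both other comparisons and adds no independent evidence. The call of LTBP2 was kept in 2 of 9 fits with 1 array left out and was lost without DM 1, DM 2, DMSO 2, DMSO 3 or any CID array, up to an adjusted p of 0.179. LTBP3 and LTBP4 lay between -0.08 and 0.11 in the comparisons with DM and DMSO.

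**Figure D2:**
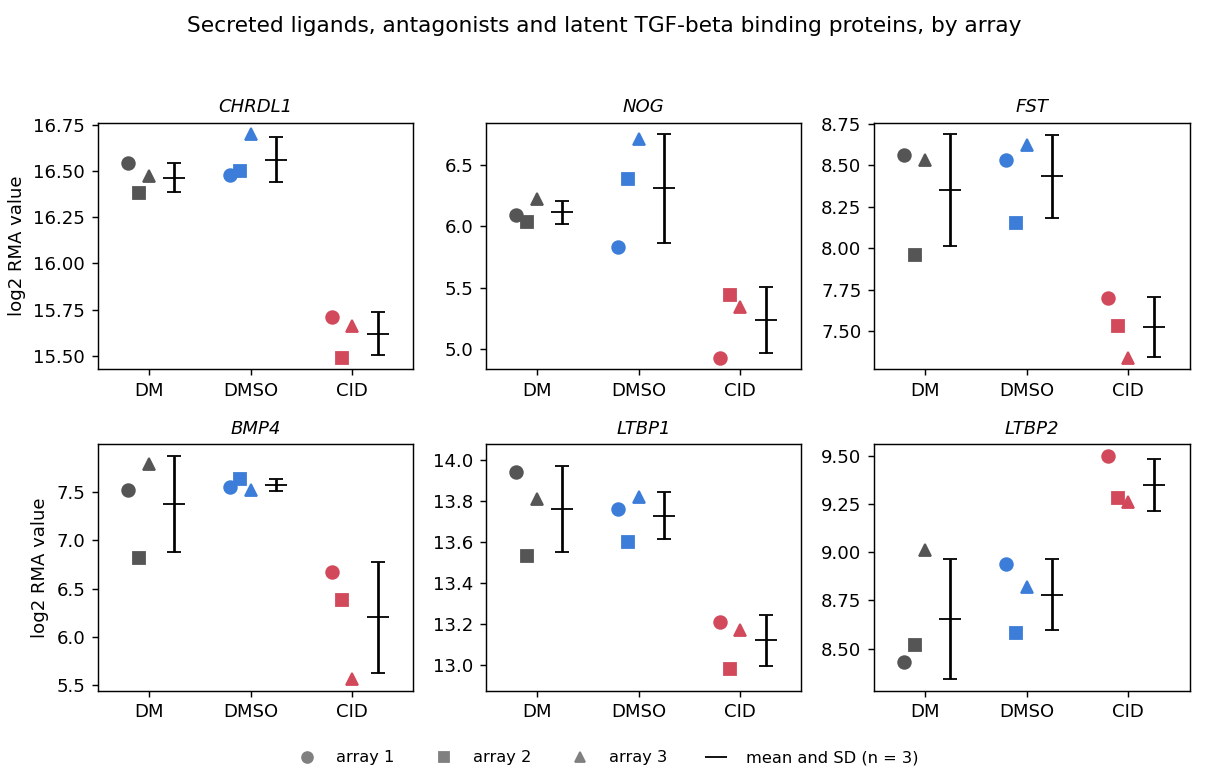
Log2 RMA values by array in DM, DMSO and CID (3 arrays each, symbols for arrays 1 to 3) for CHRDL1, NOG, FST, BMP4, LTBP1 and LTBP2, with the mean and SD of each group beside the points. Each panel has its own axis, which does not start at 0. The CID arrays are the lowest 3 for every gene but LTBP2, where they are the highest 3, and CHRDL1 has the tightest groups relative to the difference.

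Among the measured ligands and receptors of TGF-beta no large difference was found, and TGFB2 had no probe set of that symbol. TGFB1, the main TGF-beta isoform, read 10.73, 11.17 and 10.54 in DM, 10.95, 10.99 and 10.68 in DMSO, and 10.45, 10.71 and 10.55 in CID. The groups overlapped, and the log2 fold changes were -0.24 (95% CI -0.62 to 0.13) against DM and -0.30 (95% CI -0.68 to 0.07) against DMSO. These intervals of TGFB1 do not leave out a 1.5-fold lower value. TGFB3 stood at 0.06 in both comparisons (95% CI -0.41 to 0.53 in each). TGFBR2, the type II receptor that binds TGF-beta first, read 15.29, 15.01 and 15.21 in DM, 15.25, 15.25 and 15.45 in DMSO, and 15.11, 15.09 and 14.95 in CID. The CID arrays lay below the DMSO arrays but overlapped the DM arrays, with log2 fold changes of -0.12 (95% CI -0.39 to 0.15) and -0.27 (95% CI -0.54 to 0.01). The type I receptor TGFBR1 and the co-receptor TGFBR3 lay with it in ranges of -0.12 to -0.07 against DM and -0.27 to -0.21 against DMSO, none of which passed.

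INHBA, the beta A subunit from which activin A is built, showed its highest values in DM, and CID lay with DMSO. It read 11.25, 10.77 and 10.50 in DM, 10.21, 10.09 and 10.20 in DMSO, and 10.06, 10.23 and 10.35 in CID. Every DM array was above every DMSO and CID array, and DMSO and CID overlapped. The log2 fold change was -0.67 for DMSO against DM (limma unadjusted p = 0.00290, adjusted p = 0.546), -0.63 for CID against DM (adjusted p = 0.134) and 0.05 for CID against DMSO (95% CI -0.34 to 0.43), so none passed. INHBB, the beta B subunit, read 7.09, 7.39 and 7.07 in DM, 7.06, 7.03 and 7.06 in DMSO, and 6.62, 6.94 and 6.82 in CID. The 3 CID arrays were the lowest, but log2 fold changes of -0.39 and -0.26 had limma adjusted p-values of 0.225 and 0.394.

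Among the BMP and activin receptors none was a DEG. ACVR2B, an activin type II receptor whose probe set was in the dimmest 33.3%, read 4.84, 4.89 and 4.89 in DM, 5.04, 4.43 and 4.43 in DMSO, and 4.46, 4.34 and 4.48 in CID. CID lay below DM but overlapped DMSO, and the log2 fold changes were -0.45 (limma adjusted p = 0.263) and -0.21 (adjusted p = 0.603). ACVR1, the type I receptor also called ALK2, read 10.65, 10.59 and 10.71 in DM, 10.75, 10.93 and 10.90 in DMSO, and 10.71, 10.71 and 10.48 in CID. Its CID arrays overlapped DM and lay just below DMSO, with log2 fold changes of -0.02 (95% CI -0.28 to 0.24) and -0.23 (95% CI -0.49 to 0.03). BMPR1B, BMPR2, ACVR1B and ACVR2A, the remaining BMP and activin receptors measured, lay between -0.08 and 0.20 in both comparisons.

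No large difference was found in the transcripts of the SMADs that carry the signal. SMAD1, SMAD2, SMAD3, SMAD4 and SMAD5 had log2 fold changes of -0.01 to 0.24 against DM and -0.07 to 0.18 against DMSO, and none passed. SMAD1, a BMP-responsive SMAD, read 10.86, 10.38 and 10.73 in DM, 11.00, 10.90 and 10.82 in DMSO, and 10.97, 10.64 and 11.08 in CID. SMAD3, which responds to TGF-beta and activin, read 12.84, 12.56 and 12.83 in DM, 12.84, 12.61 and 12.87 in DMSO, and 13.05, 12.85 and 12.96 in CID. For SMAD1 all groups overlapped, and for SMAD3 the CID arrays overlapped DMSO and lay just above DM, with log2 fold changes against DM of 0.24 (95% CI -0.11 to 0.59) for SMAD1 and 0.21 (95% CI -0.08 to 0.50) for SMAD3. The intervals of SMAD2, -0.26 to 0.29 against DM, and of SMAD5, -0.24 to 0.22, leave out changes of 1.5-fold. RNA levels say nothing of how much SMAD protein was phosphorylated.

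The genes that the signal itself induces were scattered among the control arrays. SMAD7, an inhibitory SMAD induced by TGF-beta and by BMP, read 9.92, 9.05 and 9.89 in DM, 10.04, 9.40 and 9.87 in DMSO, and 10.21, 10.18 and 10.09 in CID. The CID arrays were the highest 3, but the log2 fold changes of 0.54 and 0.39 did not pass (limma adjusted p = 0.366 and 0.480). SMAD6, the inhibitory SMAD of the BMP branch, was examined after its values were seen and read 9.83, 8.57 and 9.73 in DM, 10.32, 8.89 and 9.67 in DMSO, and 10.21, 10.00 and 9.47 in CID. The groups overlapped widely, with log2 fold changes of 0.52 (95% CI -0.34 to 1.38) against DM and 0.27 (95% CI -0.59 to 1.13) against DMSO.

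ID3, one of the ID genes, whose products bind and inactivate basic helix-loop-helix factors and which are standard readouts of BMP signalling, read 12.63, 12.17 and 13.04 in DM, 12.46, 11.92 and 12.55 in DMSO, and 13.14, 13.06 and 13.18 in CID. The CID arrays were the highest 3, with DM array 3 just below them. ID3 was 1.76-fold higher against DMSO (log2 fold change 0.82, 95% CI 0.33 to 1.30), which did not pass (limma adjusted p = 0.0834), and stood at 0.51 against DM (adjusted p = 0.362). ID1, examined after its values were seen, read 11.89, 11.66 and 12.68 in DM, 12.67, 11.42 and 12.51 in DMSO, and 12.39, 12.38 and 12.68 in CID. ID2, likewise, read 12.49, 12.11 and 12.54 in DM, 12.42, 11.90 and 12.39 in DMSO, and 12.46, 12.28 and 12.64 in CID. Both overlapped between groups, with log2 fold changes of 0.41 and 0.28 for ID1 and of 0.08 and 0.22 for ID2 against DM and DMSO. ID4 stood at -0.05 and 0.02. None of the 4 ID genes was a DEG.

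**Figure D3:**
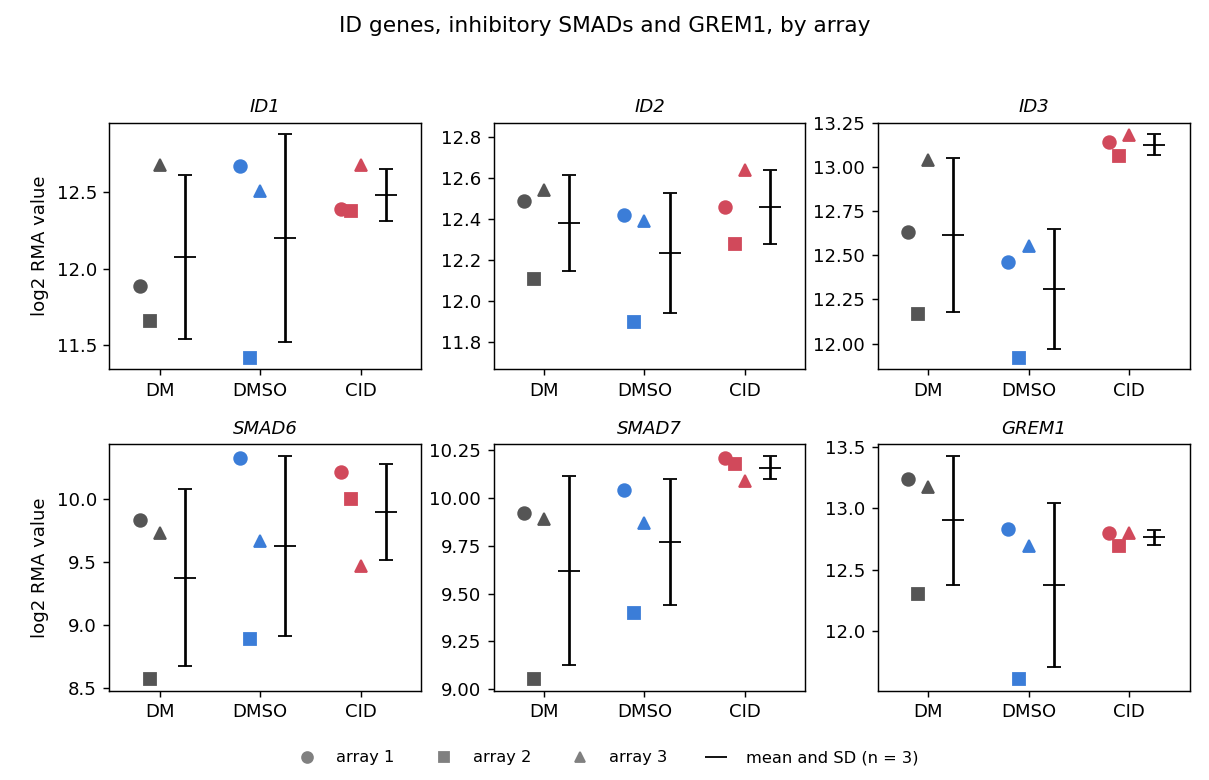
Log2 RMA values by array in DM, DMSO and CID for ID1, ID2, ID3, SMAD6, SMAD7 and GREM1 (symbols for arrays 1 to 3, mean and SD beside them, an axis of its own for each panel that does not start at 0). Array 2, the square, is the lowest point in DM and in DMSO for all 6 genes, and the 3 CID arrays span a narrower range than either control group in each panel.

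This spread followed the array number in the controls. Array 2 was the lowest of its group both in DM and in DMSO for 10 of the 40 genes (LTBP1, TGFBR3, FST, GREM1, SMAD3, SMAD6, SMAD7, ID1, ID2 and ID3), where 12.7% of all probe sets did so, and the highest in both for 3 (TGFB1, TGFB3 and SMAD4), where 11.2% did so. For 7 of these genes (LTBP1, TGFBR3, GREM1, SMAD3, ID1, ID2 and ID3) array 2 was the lowest in CID as well. The share of all probe sets with array 2 the lowest in all 3 groups was not counted. The pattern was noticed after the values were seen. Without both arrays 2 of DM and DMSO, the log2 fold change of ID3 was 0.29 against DM and 0.62 against DMSO, that of SMAD7 0.26 and 0.21, that of SMAD6 0.11 and -0.10 and that of ID1 0.20 and -0.11. Without these arrays FST was called against DM and DMSO, and CHRDL1 with it, whereas LTBP1, BMP4 and NOG were no longer called against DMSO by limma. Their log2 fold changes were little altered, at -0.67 for LTBP1 (adjusted p = 0.0550), -1.33 for BMP4 (0.0803) and -1.03 for NOG (0.123).

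Genes outside the 40 that take part in the same steps were read from lists written with earlier results of these data known. Of 17 genes of TGF-beta latency and activation, 1, ITGB8, was a lower DEG against each control. That is a share of 5.88%, where 0.970% of all probe sets were lower against DM and 1.74% against DMSO. Another 1, ITGB5, was a higher DEG against DM, also 5.88%, where 0.378% of all probe sets were higher. ITGB8 is the integrin beta subunit whose pairing with alpha V binds latent TGF-beta and releases it. ITGB8 read 14.01, 13.90 and 13.53 in DM, 13.32, 13.87 and 13.92 in DMSO, and 11.05, 11.93 and 11.88 in CID. The CID arrays were far below the 6 others, and ITGB8 was 4.57-fold lower against DM (limma adjusted p = 0.00207) and 4.24-fold lower against DMSO (adjusted p = 0.00183). ITGB5, another partner of alpha V, was 1.61-fold higher against DM (adjusted p = 0.0194), a call lost without any 1 of DM 1, DM 2, DM 3, CID 1 and CID 2 (up to 0.0821). Against DMSO its log2 fold change was 0.48 (adjusted p = 0.0633).

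Of 15 other secreted antagonists, only DCN, decorin, a matrix proteoglycan that binds TGF-beta, was a DEG, 1.62-fold lower against DMSO (limma adjusted p = 0.00587). That is a share of 6.67%, where 1.74% of all probe sets were lower. Against DM, DCN stood at a log2 fold change of -0.48 (adjusted p = 0.0527). None of 20 other ligands of the family, 11 other receptors and co-receptors and 22 intracellular regulators of SMAD signalling was a DEG against either control with limma. Before adjustment, at p under 0.05, the other ligands gave 0 against either control. The receptors gave 1 lower against DM, and 3 lower with 1 higher against DMSO, and the intracellular regulators 2 higher against DM and 1 higher against DMSO. Over all probe sets 6.90% were lower and 5.74% higher against DM at that threshold, and 7.96% and 7.20% against DMSO.

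Genes known to respond to TGF-beta were also counted, from a list written with fold changes of these samples already known, so it is not independent evidence. Of the 31 measured, 4 were DEGs against DM and all were lower, COL1A1, TAGLN, CCN2 and VCAN, a share of 12.9% where 0.970% of all probe sets were lower. Against DMSO 8 were lower, these 4 and COL1A2, COL5A1, LOX and TIMP3, a share of 25.8% where 1.74% of all probe sets were lower. BGN alone, 3.23% of the list, was higher, where 0.667% of all probe sets were. The list's median log2 fold change was -0.20 against DM and -0.22 against DMSO, beside 0.01 and 0.02 over all probe sets.

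TAGLN, transgelin, an actin-binding protein of contractile cells, read 13.94, 13.70 and 13.60 in DM, 13.93, 14.27 and 14.05 in DMSO, and 12.78, 12.77 and 12.42 in CID. CCN2, connective tissue growth factor, read 14.13, 13.81 and 13.77 in DM, 13.58, 14.19 and 14.00 in DMSO, and 12.75, 12.99 and 12.85 in CID. In both genes the CID arrays were clearly below the 6 others. TAGLN was 2.13-fold lower against DM and 2.69-fold lower against DMSO (limma adjusted p = 0.00638 and 0.00102), and CCN2 2.06-fold and 2.08-fold lower (adjusted p = 0.0137 and 0.00813). COL1A1, a chain of collagen I, was 2.20-fold and 2.36-fold lower (adjusted p = 0.00686 and 0.00258), and VCAN, the proteoglycan versican, 1.61-fold and 1.91-fold lower (adjusted p = 0.0173 and 0.00251). Against DM the call of CCN2 was lost without DM 1, CID 1 or CID 3 (up to 0.0659) and that of VCAN without DM 1 or any CID array (up to 0.0775). Against DMSO the calls of COL1A2, COL5A1, LOX, TIMP3 and BGN were each lost in at least 4 of 6 fits with 1 array left out, by DMSO 2, DMSO 3, CID 2 and CID 3 in every case, up to an adjusted p of 0.119. The other 4 genes kept their calls against DMSO in 6 of 6 fits, as COL1A1 and TAGLN did against DM.

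The other 22 genes on the list did not pass against DMSO, nor did 27 against DM, and they stood on both sides of 0. TPM1 and MYL9 stood at -0.57 and -0.56 against DMSO with limma adjusted p-values of 0.0346 and 0.0308, and missed only the fold threshold. Over the 31 genes, the CID arrays lay all below the 6 others for 13, FN1 among them, and all above for 1. Over all probe sets 5.33% lay all below and 4.42% all above. FN1, fibronectin, stood at -0.20 in both comparisons, ACTA2, smooth muscle actin, at -0.35 and -0.20, and TGFBI, a matrix protein named for its induction by TGF-beta, at -0.36 and -0.28. KLF10, a zinc finger factor induced early by TGF-beta, stood at 0.66 (95% CI -0.07 to 1.38) against DM and 0.71 (95% CI -0.01 to 1.44) against DMSO, as far from 0 as some genes that passed but with wider intervals, and HMGA2, a chromatin protein, at 0.38 and 0.57. Of the feedback genes, SKIL, a repressor of SMADs, stood at 0.51 and 0.27, and PMEPA1, whose probe set was in the dimmest 33.3%, at 0.00 and 0.05. Of 16 BMP-responsive genes other than the ID genes and inhibitory SMADs, none was a DEG with limma. At an unadjusted p under 0.05, 1 was lower and 0 higher in each comparison. Over all probe sets 6.90% were lower and 5.74% higher against DM, and 7.96% and 7.20% against DMSO. The median log2 fold changes of the 16 genes were 0.02 and 0.17, and 7 of the 16 probe sets were in the dimmest 33.3%. The CID arrays lay all above the 6 others for 0 of the 16 genes and all below for 2, where 4.42% and 5.33% of all probe sets did so. At the high end ATOH8, a transcription factor induced by BMP, stood at 0.54 and 0.43, and at the low end ALPL, the alkaline phosphatase of bone formation, at -0.61 and -0.54. HAMP, the iron hormone hepcidin, stood at -0.48 and -0.43 with every CID array below the others. None of these 3 passed.

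**Figure D4:**
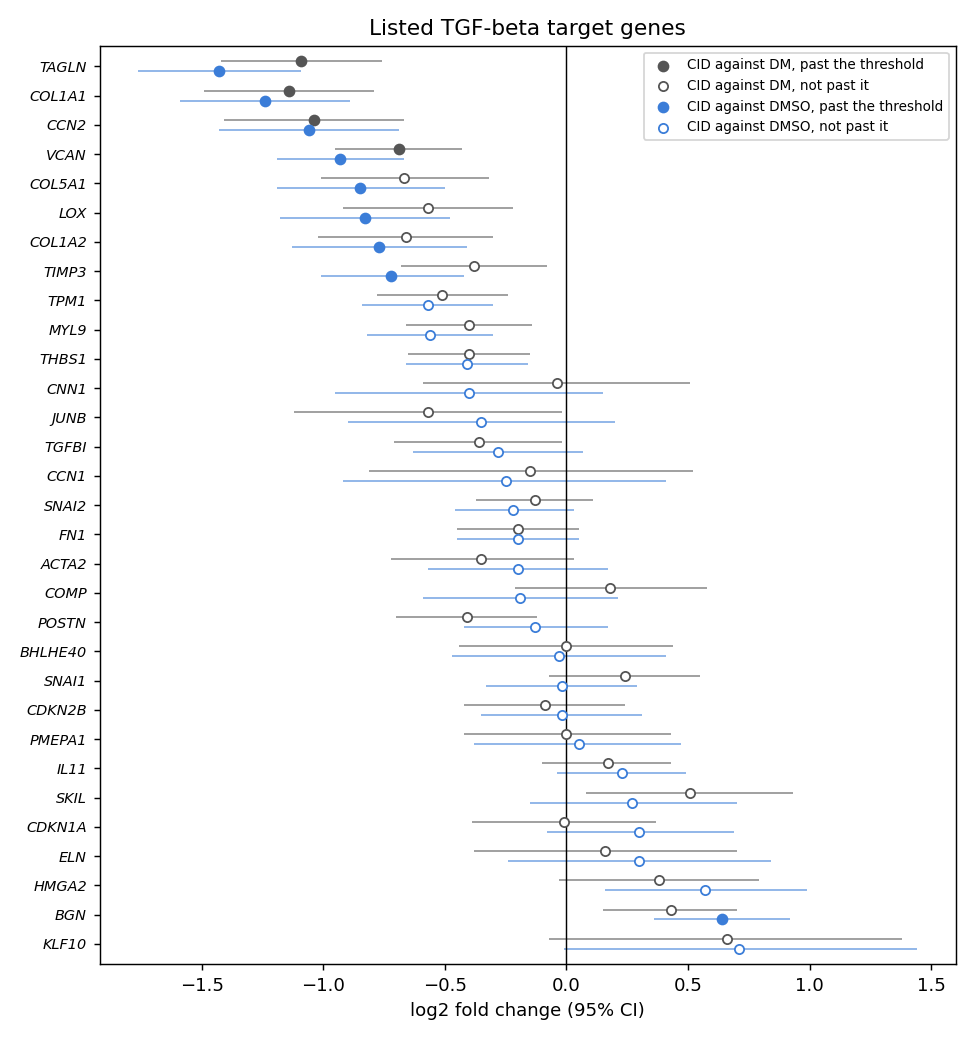
Log2 fold change with 95% confidence interval of the 31 measured genes listed as TGF-beta targets, against DM (grey) and against DMSO (blue), ordered by the latter. Filled points passed an adjusted p under 0.05 with a fold of at least 1.5, which 4 did against DM and 9 against DMSO, all lower except BGN.

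Markers of the stromal cells moved in the same samples. The mean log2 value of the 9 mesenchymal stromal markers was 14.95 to 14.99 over the DM arrays, 15.09 to 15.14 over DMSO and 14.63 to 14.69 over CID. Against DMSO 5 of the 9 were lower DEGs (PDGFRB, PDGFRA, COL1A2, LUM and DCN), a share of 55.6% where 1.74% of all probe sets were lower. Against DM 1 was, PDGFRA, a share of 11.1% where 0.970% of all probe sets were lower. The call of PDGFRA against DM was kept in 1 of 6 fits with 1 array left out, with limma adjusted p-values up to 0.124. The list did not shift as one. THY1 stood at log2 fold changes of 0.39 and 0.45, with all 3 CID arrays above the 6 others, VIM at -0.06 and -0.14, and ENG at -0.04 and 0.10, and none of these passed. The part of this shift in the lower levels of CHRDL1, NOG, FST, BMP4 and LTBP1 and of the matrix genes was not tested, and in RNA from whole cultures fewer cells of a type and less RNA per cell cannot be told apart. The 13 proliferation markers held 0 DEGs with limma and had array means of 9.38 to 9.79 in DM, 9.21 to 9.66 in DMSO and 9.36 to 9.71 in CID. At an unadjusted p under 0.05, 2 were lower against DM, and 1 was higher and 1 lower against DMSO. Over all probe sets 6.90% were lower and 5.74% higher against DM at that threshold, and 7.96% and 7.20% against DMSO. The 11 keratinocyte and epithelial markers had array means of 5.30 to 5.58, 5.30 to 5.40 and 5.43 to 5.53 in DM, DMSO and CID. DSP, desmoplakin, was the only DEG among them, 1.58-fold higher against DMSO (limma adjusted p = 0.0327, and 0.0637 to 0.119 without any 1 array). That is a share of 9.09%, where 0.667% of all probe sets were higher.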

How the data were processed

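Per the labels, the authors deposited log2 expression values made by RMA in the Transcriptome Analysis Console for 9 Clariom S Human arrays, 3 each of DM, DMSO and CID. Neither its version nor the variant of RMA is stated in the sources used here. All 9 columns of the table were used, and having 3 arrays a group limits precision. Probe sets were named from the platform annotation, where 17709 of 21448 carried 1 gene symbol. Where a gene had more than 1, the brightest stood for it.

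Group means were fitted to all 9 arrays with limma 3.58.1 in R 4.3.3, the contrasts were moderated with eBayes, and p-values were adjusted over all 21448 probe sets (Benjamini-Hochberg). DEGs passed an adjusted p under 0.05 and a fold of at least 1.5, a linear fold. The methods word the fold threshold in one place as a log2 fold change and in another as a fold change, so the log2 reading was run as an alternative. Intervals are 95% from the moderated fit. The fit was tested on simulated data. Among the pathway genes, values in every array are printed for those at an adjusted p under 0.05 in any comparison. They are also printed for the pathway gene of each role with the largest difference. FSTL3, GREM1, SMAD6, ID1 and ID2 were added after their values were seen. Of the genes on other lists, only ITGB8, TAGLN and CCN2 have their array values printed. The pathway genes and all lists were chosen with earlier results of these data known. Promoters came from a RefSeq table on GRCh38.p14. Figures were drawn with matplotlib 3.10.9. Alternatives were the arrays in the fit, the variance prior, both thresholds, the filter on dim probe sets, the scaling, array weights, the replicate number as a block, an equal-variance test and leaving out arrays.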

Additional observations from a re-analysis of the deposited data

How the results depend on the processing

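CHRDL1 kept its direction under 19 alternatives in each comparison with a control, with log2 fold changes of -0.89 to -0.78 against DM and -0.99 to -0.87 against DMSO. It missed the threshold with a log2 fold threshold of 1.5 and with an equal-variance t-test, which the methods name as a general test and not for the arrays (adjusted p = 0.129 against DM and 0.0911 against DMSO). The other calls depended on the settings, and the cause was not tested.

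Against DM, where 1 pathway gene was called, the count was 2 with only the compared arrays in the fit, 7 with a trended and robust prior, 6 at an adjusted p under 0.1, 5 with the dimmest 33.3% left out, 2 after quantile normalization again, 2 after cyclic loess, 4 with array weights, 2 without both arrays 2 of DM and DMSO, and 1 to 4 with any 1 array left out. Against DMSO, where 5 were called, it was 3 with only the compared arrays, 2 without both arrays 2, and 1 to 2 with any 1 array left out. Against the mean of DM and DMSO, where 6 were called, it was 1 to 7 with any 1 array left out. The log2 fold threshold of 1.5 gave 0 in all 3, and that t-test 0 against DM and 0 against DMSO. Of the TGF-beta target genes, 4 against DM and 9 against DMSO became 0 and 0 under both of these settings, 2 to 4 and 4 to 8 with any 1 array left out, and 4 against DMSO without both arrays 2. Between DMSO and DM the count was 0 in every fit. Over all probe sets, the 289 calls against DM became 476 with a trended and robust prior, 456 at an adjusted p under 0.1, 40 at the log2 threshold and 2 with the t-test, and the 517 against DMSO became 53 at the log2 threshold and 21 with the t-test.

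Whether the replicate numbers pair the samples is not settled by these data. Same-numbered arrays deviated from their group means with correlations of -0.05 to 0.07, 0 of 9 pairs over 0.1. Same-numbered DMSO and CID arrays each stood at 0.07, and differently numbered ones at -0.05 to -0.02. For pairs with a DM array the ranges overlapped, at -0.05 to 0.06 with the same number and -0.07 to 0.06 otherwise. Of the 9 arrays, 7 correlated best with their own number, a hint from the data and not the design. All DMSO and CID arrays are among the 7, each same-numbered pair counted from both sides, so these are not separate agreements. The remaining array, DM 2, stood at 0.06 with both DMSO 2 and CID 3. With the replicate number as a block, 4 pathway genes were called against DM (LTBP1, FST, NOG and CHRDL1), 5 against DMSO, where ID3 was called (adjusted p = 0.0336) and BMP4 was not (0.0526), and 6 against the mean, with ID3 in place of LTBP2 (0.0577). Of the TGF-beta target genes the block called 10 against DMSO, 8 lower and 2 higher, with KLF10 (0.0282) added.

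Some small, uncalled differences changed sign. With any 1 array left out, the log2 fold change against DM ranged over -0.39 to 0.01 for BMP1, -0.06 to 0.06 for ACVR1, -0.44 to 0.03 for GREM1, -0.05 to 0.17 for ID2, -0.15 to 0.04 for ID4, -0.09 to 0.32 for TGFB3, -0.10 to 0.10 for SMAD2, -0.04 to 0.01 for SMAD5, -0.07 to 0.08 for PMEPA1 and -0.10 to 0.01 for ENG. Against DMSO it ranged over -0.02 to 0.12 for INHBA, -0.10 to 0.12 for SMAD1, -0.10 to 0.61 for SMAD6, -0.11 to 0.52 for ID1, -0.08 to 0.13 for ID4, -0.08 to 0.18 for TGFB3 and -0.15 to 0.27 for PMEPA1. After quantile normalization again, values against DM were 0.00 for ACVR1, 0.02 for SMAD5, 0.03 for VIM and -0.02 for PMEPA1, and against DMSO 0.02 for SMAD1, 0.02 for VIM and -0.03 for ID4. Median centring gave 0.01 for ACVR1 and 0.01 for SMAD5 against DM and -0.01 for ID4 against DMSO. Cyclic loess gave 0.01 for SMAD5 and -0.02 for PMEPA1 against DM, and 0.00 for SMAD1 and -0.02 for ID4 against DMSO. Array weights gave -0.01 for SMAD2, 0.01 for SMAD5, -0.01 for PMEPA1 and 0.00 for ENG against DM, and -0.01 for ID4 against DMSO. Without both arrays 2, an alternative chosen after seeing the data, values against DM were -0.05 for ID2, -0.10 for SMAD2, 0.01 for SMAD5, -0.01 for PMEPA1 and 0.01 for ENG, and against DMSO -0.10 for SMAD6, -0.11 for ID1 and -0.08 for ID4. The mean over several probe sets was not run, since each pathway gene had 1.

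With 3 arrays a group, 1 cell line and pooled RNA, differences under about the width of the intervals given were not detectable.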
